A study of Arabidopsis thaliana with 10 samples.

Results

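The nuclear photosystem I subunit genes of Arabidopsis thaliana were examined for binding by LIMYB, a MYB-domain protein that acts below the receptor kinase NIK1. The 10 genes were PSAD-1, PSAD-2, PSAE-1, PSAE-2, PSAF, PSAG, PSAK, PSAL, PSAN and PSAO, out of 27432 nuclear protein-coding genes. They were taken by name, and every peak that the authors assigned to one of them was kept, at any distance. In all, 11 peaks met this rule: 4 of the 9604 nuclear peaks of line L1 and 7 of the 8952 of line L4. The short list of line L3 held 12 peaks, none of them on a nuclear chromosome. The 2 nuclear genes for subunit H, PSAH-1 and PSAH-2, are not among the 10 and are described beside them.

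The chromatin came from whole seedlings, up to 12 days old, of LIMYB overexpression lines. All samples were grown on agar medium with 1% sucrose. All of them carried a YFP-LIMYB transgene, and the tagged protein was precipitated with an anti-GFP antibody after crosslinking in 1% formaldehyde. Group L1 has 2 samples, and groups L3 and L4 have 4 each. The 4 samples of L3 and of L4 carry only 2 replicate numbers in their labels, each used with a pair of title suffixes, so they may be repeat runs of 2 samples. The promoter driving the transgene, and whether the lines are independent insertions, are not given in the labels. All sample titles carry the same LIMYB designation before the group name. Agreement of L1 and L4 therefore cannot be read as agreement of independent insertions. No group without the transgene and no input DNA is among the samples, so no peak below can be set against a control. Each line is represented by 1 peak list and no column names a sample. The values therefore have no replicate error, and no test was possible. The depth of sequencing is unknown.

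Photosystem I is the light-driven complex of the thylakoid membrane that takes electrons from plastocyanin in the lumen and passes them to ferredoxin in the stroma. Its large core proteins are encoded in the plastid, and most of its small subunits are encoded in the nucleus and imported. PSAD and PSAE, with the plastid-encoded PsaC, form the stromal ridge where ferredoxin docks. PSAF and PSAN lie towards the lumen and take part in the oxidation of plastocyanin. PSAG and PSAK sit at the membrane edges that hold the antenna, and PSAL, PSAH and PSAO lie on the side where mobile antenna docks during state transitions.

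LIMYB peaks were assigned to 6 of the 10 subunit genes, and to 4 of them in both lines. PSAD-2, PSAG, PSAL and PSAN had a peak in L1 and in L4. PSAD-1 and PSAK had one in L4 alone. PSAE-1, PSAE-2, PSAF and PSAO had none in any list. Peaks were assigned to 25.7% of all nuclear genes in L1, 24.4% in L4 and 14.3% in both, against 4, 6 and 4 of the 10. A peak in either line was assigned to 35.8% of all genes and to 6 of the 10. In each of the 4 genes with peaks in both lines, a peak of L1 overlapped one of L4. Such an overlap held for 12.3% of all nuclear genes and for 85.9% of the 3928 genes with peaks in both lines, so that 4 of 4 was close to the general share.

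Promoter peaks were found at 3 of the 10 genes in L1 and at 4 in L4. A promoter peak is one that touches the stretch between 1000 bp before and 100 bp after the 5′ end that the files give for the assigned gene. PSAD-2, PSAL and PSAN had promoter peaks in both lines, and PSAG had one in L4. Among all nuclear genes the shares were 8.67% in L1, 8.05% in L4 and 3.83% in both. In PSAD-2, PSAL and PSAN the promoter peaks of L1 and L4 also overlapped, as they did in 3.70% of all genes. The gene body was touched by a peak at PSAG and PSAN in L1 (2 of 10, beside 12.6% of all genes) and at PSAD-2, PSAG, PSAK and PSAN in L4 (4 of 10, beside 12.5%). For PSAG and PSAN this held in both lines (2 of 10, beside 5.96%). The members' counts were above the background in each of these comparisons, but each gene is 10% of so small a set, and the genes were chosen with earlier results of these data known.

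The counts fell when the weaker peaks of each list were set aside. Among the 50% of nuclear peaks with the higher folds, PSAG alone was left in L1, PSAD-2, PSAK and PSAN were left in L4, and no member was left in both. All genes stood at 14.8%, 14.2% and 7.03% by the same rule. Promoter peaks then remained at no member in L1 or in both lines (4.67% and 1.74% of all genes) and at PSAD-2 and PSAN in L4 (2 of 10, beside 4.25%). With a −log10 q of at least 10, an assigned peak was left at 1 member in L1, 4 in L4 and 1 in both (14.2%, 14.6% and 7.34% of all genes), and PSAG was the gene left in both. Promoter peaks at that q were left at 0 members in L1, 3 in L4 and 0 in both (4.59%, 4.57% and 1.92% of all genes). The L4 genes were PSAD-2, PSAG and PSAN.

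**Figure D1:**
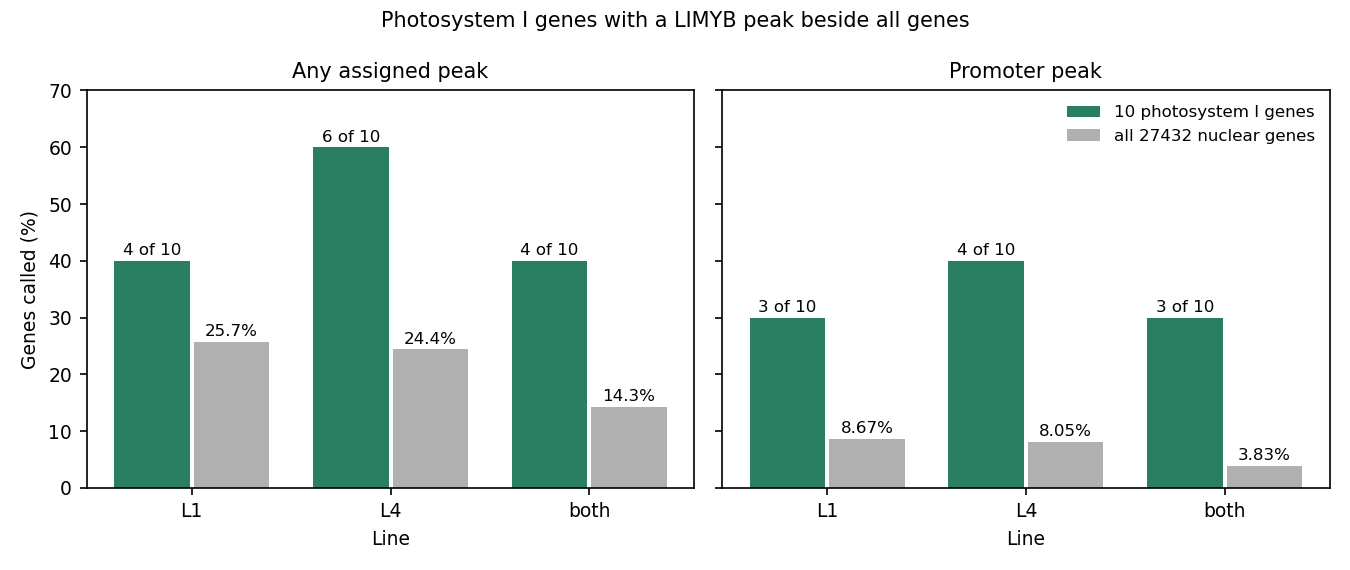
Share of genes with any assigned peak (left) and with a promoter peak (right), in percent, for L1, L4 and both lines. Green bars are the 10 photosystem I genes, with their counts, and grey bars are all 27432 nuclear protein-coding genes; the green bars are higher throughout, from 3 to 6 of 10 genes.

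The stromal ridge gene PSAD-2 (AT1G03130) had the highest L4 fold of the set and shared the lowest L1 fold. PSAD is among the subunits that form the docking site of ferredoxin. The L4 peak, on chromosome 1 at 754041 to 754440, had a pileup of 29 fragments, a fold enrichment of 22.57 and a −log10 q of 26.82. The pileup is the number of overlapping fragments at the summit, the point of highest signal, and the fold enrichment is the authors' ratio of signal to background. By fold, 93.7% of the nuclear L4 peaks were lower, which placed this site near the top of its list. The L1 peak, at 754248 to 754512, had a pileup of 13, a fold of 6.79 and a −log10 q of 5.85, and only 14.4% of L1 peaks were lower in fold.

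The PSAD-2 peaks lay differently at the start of the gene, and only the L4 peak covered the 5′ end as placed by the authors. RefSeq placed the 5′ end farther upstream for 5 of the 6 members with peaks. Whether the L1 peak reaches a RefSeq 5′ end of PSAD-2 was not checked. The L4 peak ran from 242 bp upstream to 157 bp downstream of the 5′ end, with its summit 4 bp upstream. The L1 peak ended 50 bp short of the gene and had its summit 148 bp upstream. They overlapped by 193 bp, or 72.8% of the shorter peak, and their summits lay 144 bp apart. Among 4283 overlapping peak pairs assigned to the same nuclear gene, the median gap was 23 bp and 96.2% of pairs were closer than the PSAD-2 pair.

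The other stromal ridge genes did not have such a site. PSAD-1 (AT4G02770) encodes a close copy of the same protein. Its peak, in L4, lay at 1236892 to 1237211 on chromosome 4, with a pileup of 14 and a fold of 10.9. The summit was 7128 bp upstream of the gene, so the assignment rests on the nearest-gene rule alone. The nearest L1 peak was 8862 bp away and was assigned to AT4G02760. The next gene in the RefSeq order, on the upstream side of PSAD-1, is GA1, which had no assigned peak in either line. The distance from the PSAD-1 peak to GA1 was not measured. Both PSAE genes had none, nor had the genes on either side of them. Whether reads from the PSAD copies can be confused at these sites was not tested.

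On the lumen side, PSAN (AT5G64040) carried peaks across its 5′ end, as placed by the authors, in both lines, whereas PSAF (AT1G31330) had none. A peak across the 5′ end was assigned to 1.90% of nuclear genes in L1 and 1.80% in L4, and to 0.674% in both. PSAN was the 1 member with such a peak in L1, and in L4 it was joined by PSAD-2. The L1 peak of PSAN, on chromosome 5 at 25629548 to 25629747, had a pileup of 13 and a fold of 6.79. The L4 peak, at 25629541 to 25629875, had a pileup of 21, a fold of 13.82 and a −log10 q of 15.25, with 67.7% of L4 peaks lower in fold.

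The whole L1 peak of PSAN lay inside the L4 peak. The summits, however, were 137 bp apart, farther than in 95.8% of overlapping pairs. In L1 the summit lay 14 bp inside the gene, and in L4 it lay 123 bp upstream. The neighbour AT5G64030 had 1 peak in L1 and none in L4, and its 5′ end was 5564 bp from the PSAN summit of L1 and 5701 bp from that of L4.

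**Figure D2:**
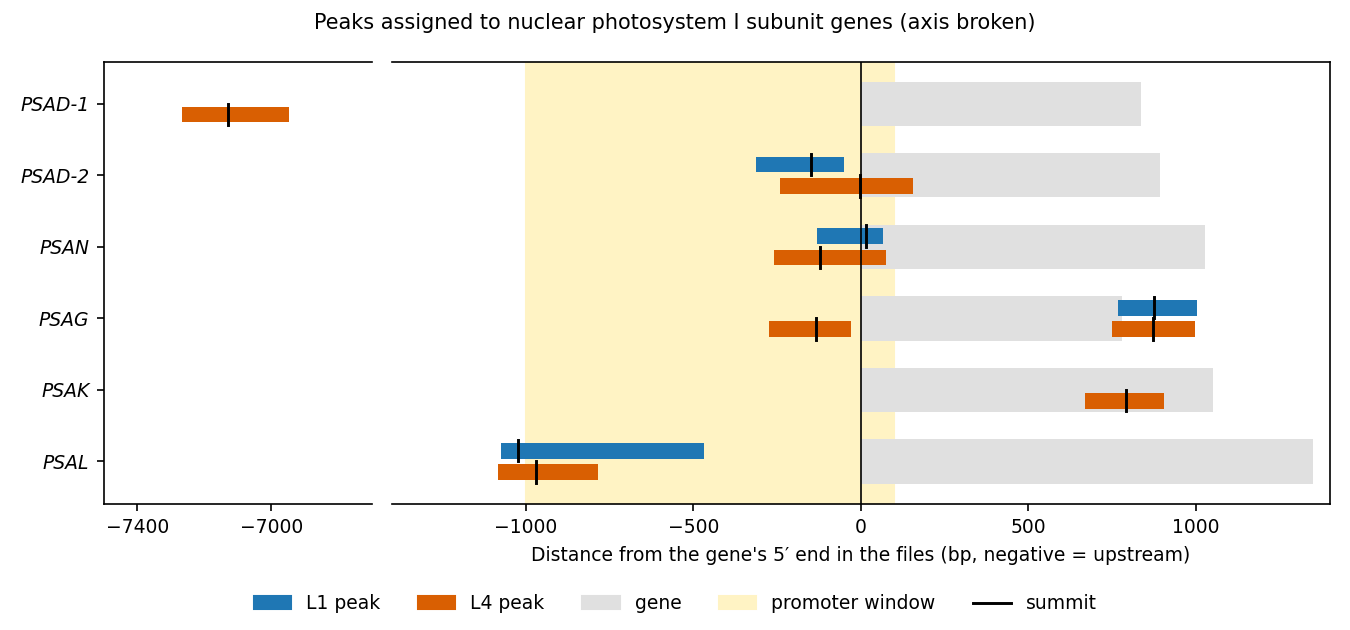
Position of the 11 peaks at the 6 subunit genes that had any, in bp from the 5′ end of the gene, with blue bars for L1, orange bars for L4, black marks for summits, grey boxes for genes and a yellow band for the promoter window; the axis is broken. Peaks of PSAD-2, PSAN and PSAL fall in the promoter window in both lines, and those of PSAG at the 3′ end coincide.

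PSAG (AT1G55670), a membrane subunit at the antenna side, had its shared site at the other end of the gene. The L1 peak, on chromosome 1 at 20802445 to 20802681, had a pileup of 22, a fold of 11.22 and a −log10 q of 14.05. The L4 peak, at 20802451 to 20802698, had 24, 9.45 and 13.76. Both crossed the 3′ end, and their summits were 5 bp apart, 876 bp and 871 bp downstream of the 5′ end of this 780-bp gene. This was the closest summit pair among the 4 shared genes, and 15% of all pairs were closer. It was also the only L1 peak of the set above the median fold of the L1 list, which was 8.72.

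A further PSAG peak appeared in L4 just upstream of the gene, at 20803479 to 20803723. It had a pileup of 22, a fold of 8.59 and a −log10 q of 11.83, and its summit lay 134 bp upstream. The nearest L1 peak was the one at the 3′ end, 798 bp away. The last 20 bp of the L4 peak overlapped the 3′ end of AT1G55675, the gene that follows upstream in the files, and the peak stopped 30 bp short of PSAG. The next gene in the RefSeq order, AT1G55673, had no peak. PSAG was the 1 member with more than 1 peak in a list. Among nuclear genes with any L4 peak, 15.7% had more than 1.

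The L4 folds at PSAG were low for their pileups. Of 218 nuclear L4 peaks with a pileup of 24, the median fold was 15.79 and the highest 18.68, against 9.45 at PSAG. Of 259 with a pileup of 22, the median was 16.18 and the highest 17.12, against 8.59. In L1 the PSAG fold of 11.22 stood close to the highest value for its pileup, 11.49. Both L4 sites were among the 3 lowest folds of the 7 L4 peaks, while their pileups were exceeded only by that of PSAD-2.

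PSAK (AT1G30380), the other antenna-side subunit, had a single L4 peak inside the gene. It lay on chromosome 1 at 10722866 to 10723101, with a pileup of 16, a fold of 12.45 and a −log10 q of 10.99. The summit was 793 bp downstream of the 5′ end, at 75.5% of the gene length. Nuclear L4 peaks of lower fold made up 57% of the list, so this was a peak of middling strength. The nearest L1 peak was 6157 bp away and was assigned to AT1G30360.

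PSAL (AT4G12800), on the side where mobile antenna docks, had a weak upstream site in both lines. The L1 peak, on chromosome 4 at 7520248 to 7520854, had a pileup of 13 and a fold of 6.79. The L4 peak, at 7520238 to 7520536, had a pileup of 12, a fold of 9.34 and a −log10 q of 6.92, the lowest of the 7 L4 peaks in pileup and in q. In L4, 22.9% of peaks were lower in fold. The L1 peak was 607 bp wide, wider than 99.6% of nuclear L1 peaks, and its near edge was 468 bp from the gene. The summits were 55 bp apart, 1024 bp upstream in L1 and 969 bp upstream in L4. The L1 summit therefore lay outside the promoter window, and the peak counted through its width. PSAO (AT1G08380), of the same side, had no peak, and neither had the genes next to it.

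The 3 L1 promoter peaks, at PSAD-2, PSAN and PSAL, had the same pileup, fold and −log10 q (5.85). These 3 values together were shared by 261 nuclear peaks of L1. A fold of 6.79 was the highest reached by any of the 379 nuclear L1 peaks with a pileup of 13. Only 4.2% of nuclear L1 peaks had a lower pileup and 6.43% a lower −log10 q, so these 3 sites stood near the bottom of the L1 list. In L4 the same 3 genes spread out, with folds of 22.57, 13.82 and 9.34. Folds of different lists are given side by side without a comparison of size, since it is not stated whether the lists share a scale.

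**Figure D3:**
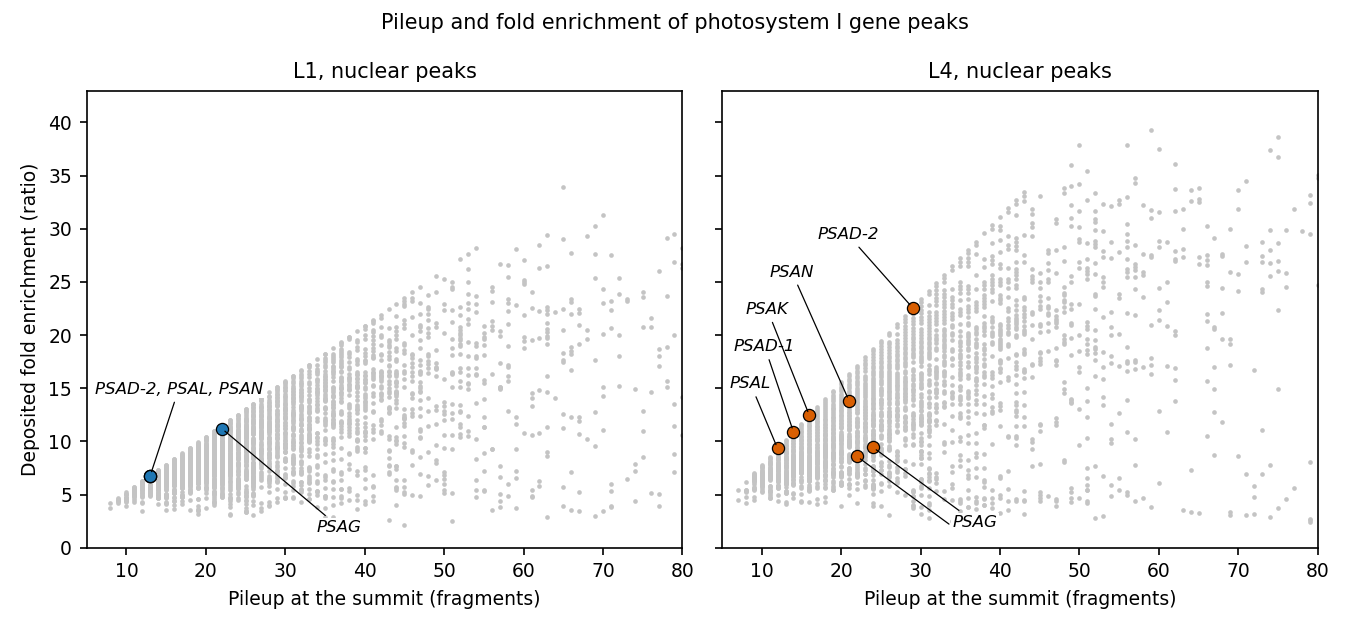
Deposited fold enrichment (ratio) against pileup at the summit (fragments) for nuclear peaks of L1 (left) and L4 (right), in grey, with the photosystem I gene peaks in colour and named; 170 peaks of L1 and 121 of L4 with a pileup over 80 are outside the plot. In L1 the promoter peaks of PSAD-2, PSAL and PSAN fall on 1 point at 13 and 6.79, and in L4 the PSAG peaks at 24 and 22 lie far under the highest folds for their pileup.

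By fold, the member peaks as a set stood at or under the middle of their lists. The median fold was 6.79 over the 4 L1 peaks (range 6.79 to 11.22) and 10.9 over the 7 L4 peaks (range 8.59 to 22.57). The medians over all nuclear peaks were 8.72 in L1 and 11.65 in L4. Of the member peaks, 1 of 4 in L1 and 3 of 7 in L4 exceeded the median fold of their list. Over the highest peak of each gene the L4 median was 11.7, level with that of all peaks. By pileup and by −log10 q, 4 of the 7 L4 peaks and 1 of the 4 L1 peaks were above the median of their list; the median L4 pileup was 21, beside 17 over all peaks. The peaks were somewhat wide, the median width being 251 bp beside 225 bp over all nuclear L1 peaks, and 299 bp beside 238 bp in L4. Genes with an L1 peak among the members all had an L4 peak as well (4 of 4), beside 55.8% of all nuclear genes with an L1 peak. Of the 6 members with an L4 peak, 66.7% had one in L1, beside 58.6% of all genes.

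The PSAH genes, left out of the 10, had no promoter peak, beside 8.67% of all nuclear genes in L1 and 8.05% in L4. PSAH-2 (AT1G52230) was assigned a downstream site in both lines, with a pileup of 31 and a fold of 13.96 in L1 and of 24 and 18.68 in L4. These folds exceeded 88.5% and 86.6% of nuclear peaks in their lists. The summits lay 5 bp apart, 2294 and 2299 bp from the 5′ end. The peaks began 1357 bp (L1) and 1313 bp (L4) beyond the 3′ end of this 833-bp gene. Other genes around these sites were not examined. PSAH-1 (AT3G16140) had no peak.

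The LHCA genes encode the antenna proteins bound to photosystem I, and 2 of 6 had a peak in L1, 3 in L4 and 2 in both. The shares of all nuclear genes were 25.7%, 24.4% and 14.3%. LHCA3 was the 1 antenna gene with a promoter peak, in both lines (1 of 6, beside 3.83% of all genes). Its folds were 8.7 in L1 and 12.14 in L4, with summits 489 and 480 bp upstream. LHCA2 had peaks inside the gene in both lines, with a fold of 6.79 in L1 and folds of 9.34 and 17.16 in L4. LHCA4 had an inside peak in L4 (9.23), and LHCA3 a further one (11.11). Of the 5 L4 peaks of antenna genes, 4 lay wholly inside the gene. Of the 7 L4 peaks of subunit genes, 1 lay wholly inside, 2 crossed the 5′ end, 1 crossed the 3′ end and 3 lay upstream. The gene body was touched in L4 at 3 of 6 antenna genes and 4 of 10 subunit genes, beside 12.5% of all genes. No test of this was run, and the share of all peaks lying inside genes was not computed.

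Genes for assembly factors of photosystem I were assigned a peak in 2 of 7 cases in each line. This 28.6% was close to the share of all nuclear genes, 25.7% in L1 and 24.4% in L4. PSA3 had an upstream peak in both lines, at a fold of 9.4 in L1 and of 10.9 in L4, and its summits lay 1161 and 1212 bp upstream. PPD1, for a lumenal assembly protein, had a promoter peak in L1 (9.4), and HCF101, which supplies iron-sulfur clusters, had a peak inside the gene in L4 (12.45). PYG7, Y3IP1, PSA2 and APO1 had none. No assembly gene had a promoter peak in both lines, beside 3.83% of all genes, so that 0 of 7 sets them apart in no way.

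**Figure D4:**
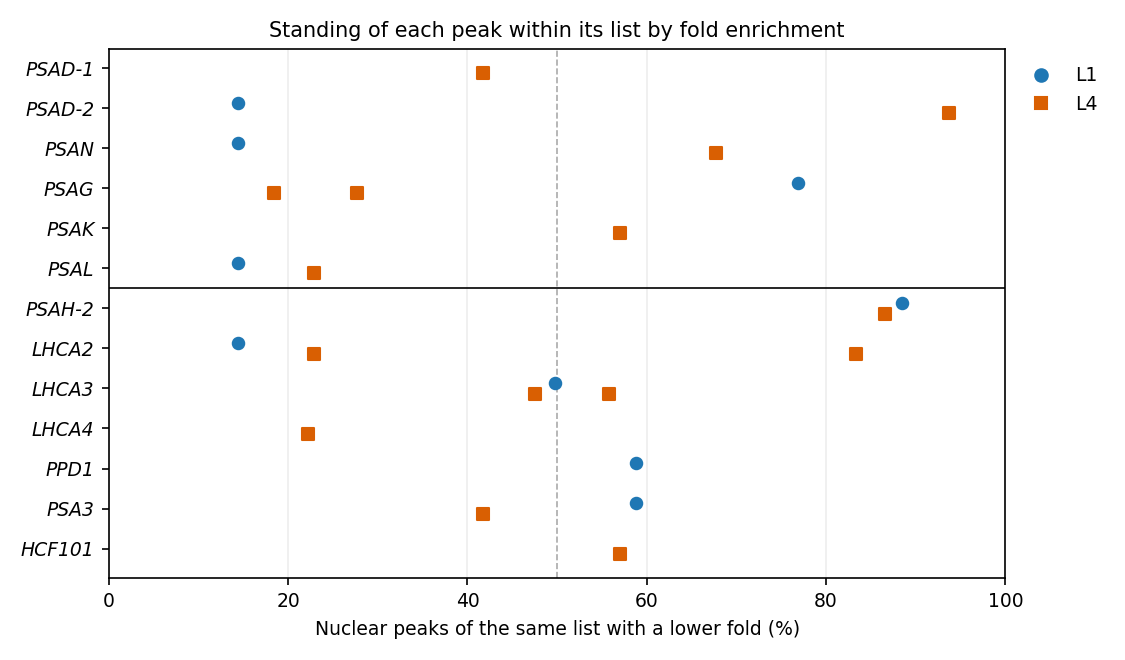
Percentage of nuclear peaks of the same list with a lower fold, for each peak of the subunit genes (above the line) and of PSAH-2, the antenna and the assembly genes (below it), with circles for L1 and squares for L4; the dashed line marks 50%. PSAD-2 is at 93.7% in L4 and 14.4% in L1, and the PSAH-2 sites are at 88.5% in L1 and 86.6% in L4.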

How the data were processed

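MACS2 called the peaks, per the submitters' processing notes. The sources used here do not give its settings, the aligner, the build, any control, or whether replicates were pooled. The file headers record that the authors assigned every peak to the nearest gene. The pileup is the deposited signal at the summit, the fold enrichment is the deposited ratio, and the q-value is on the deposited −log10 scale.

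Positions and 5′ ends are those of the files. RefSeq's TAIR10.1 table gave gene order and the 27432 nuclear protein-coding genes; all 10 members matched. Its gene bounds overlapped those of the files for all 9820 matched nuclear genes, but 5′ ends were the same in only 29.1%. For 5 of the 6 members with peaks RefSeq's 5′ end lay farther upstream, which would shift their distances.

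Peaks overlapped if they shared at least 1 bp. Distances to a 5′ end run from the summit unless an edge is named. Distances to the nearest peak of the other line, and from a peak to a gene it stops short of, run between edges. The rule for named genes took the 10 members, PSAH, LHCA, assembly and plastid-encoded photosystem I genes, and neighbours of member peaks. Members and lists were chosen with earlier results of these data known. Promoter motifs and the identity of the gene copies were not analysed here. The promoter rule was run on simulated peaks without noise, where 200 of 200 planted promoter peaks among 5000 genes were recovered. This checks the arithmetic of the window only, not the calling of peaks or their assignment to genes. Python 3.11.15, numpy 2.4.6, pandas 2.3.3 and matplotlib 3.10.9 were used.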

Additional observations from a re-analysis of the deposited data

How the results depend on the processing

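Counts of members kept within 1.5 times of the reported value in 27 of 39 alternative settings. A loss from 3 members to 2 passes this rule, and the settings reuse the same few genes, so the tally does not measure robustness. With the upper 50% of peaks by fold, any assigned peak was left for 1 member in L1, 3 in L4 and 0 in both (14.8%, 14.2% and 7.03% of all genes), and a promoter peak for 0, 2 and 0 (4.67%, 4.25% and 1.74%). With a −log10 q of at least 10, an assigned peak was left for 1 member in L1, 4 in L4 and 1 in both (14.2%, 14.6% and 7.34% of all genes). A promoter peak was left for 0, 3 and 0 (4.59%, 4.57% and 1.92%). Overlapping peaks were left at 1 member with that q in both lists, and at 2 with summits within 100 bp. The shares of all genes under these overlap rules were not computed, so these counts have no background. The median L4 fold was 11.7 over the highest peak per gene and 11.6 over promoter peaks. Adding PSAH to make 12 genes was chosen after seeing the data and changed no promoter count. No paired analysis was possible because the lists have no columns per replicate, and no replicate could be left out.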

Other observations

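Photosystem I genes encoded in the plastid stand outside the nuclear counts. The plastid genes psaA and psaB encode the chlorophyll-binding core proteins. The plastid gene psaB (ATCG00340) was assigned a peak inside the gene in L1 (pileup 139, fold 2.19) and in L4 (268 and 2.33). It had another near its 5′ end in L1 (169 and 2.85, summit 135 bp upstream) and in L4 (321 and 2.98, summit 134 bp upstream). The summits of the peaks near the 5′ end of psaB lay inside the adjoining gene psaA (ATCG00350) in both lines. A further 2 peaks inside psaA were assigned to it in L4 (folds 2.47 and 2.08). In each line another summit inside psaB belonged to a peak assigned to ATCG00330. The plastid gene psaI (ATCG00510), for a small membrane subunit, had an upstream peak in L1 (160 and 3.27) and in L4 (254 and 2.66). In L4 the assembly genes ycf4 (2.59) and ycf3 (1.71) had 1 assigned peak each. The genes psaC and psaJ had none assigned, and none of the 7 plastid genes was assigned a peak in L3. These pileups were several times those at the nuclear genes while the folds were lower. By fold, the plastid peaks assigned to these genes exceeded from 2.15% (ycf3, L4) to 64.5% (psaB, L4) of the plastid peaks of their list. The share of all plastid genes with an assigned peak was not computed, so the plastid counts have no background.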
